A study of Mus musculus with 4 samples.

Results

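Chromatin accessibility was compared between mouse kidney fibroblasts that had lost Kindlin-2 and fibroblasts with floxed Kindlin-2 alleles, over 5716 regions of the genome. These are all regions of the Kindlin-2 table outside chromosomes MT and Y, where 11 of its 5727 regions lie, and the 2 genotypes are 2 of the study's 4 samples. The other 2 samples, a Rela knockout and its wild type in 3T3 embryo fibroblasts, have a table of their own with 28445 regions. A floxed allele carries loxP sites and keeps the gene until Cre recombinase removes the flanked part. The labels give floxed alleles for the control and a knockout for the other line, both of kidney origin and at passages 15 to 20, grown in the same medium with calf serum, and no treatment is named. How the knockout was made, whether the lines are clones and whether the control saw Cre are points on which the labels are silent. Accessibility was measured by ATAC-seq on 50000 cells per library, in which the transposase Tn5 inserts sequencing adapters into open DNA.

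Kindlin-2, the product of Fermt2, is an adaptor of cell-matrix adhesions. It binds the cytoplasmic tails of integrin beta subunits together with talin, which brings integrins into their active state, and it links them to the ILK, PINCH and parvin complex and through it to actin. Adhesion and actin tension in fibroblasts feed into gene regulation through YAP and TAZ, through MRTF and SRF, and through kinase cascades that act on AP-1 factors. Open chromatin marks promoters and enhancers that transcription factors can reach, and a region's ATAC signal follows how often Tn5 cuts there.

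The values are a background-corrected, normalized signal, rounded to whole numbers, with 1 column per genotype. The design text names 2 biological replicates for each line, and the way in which 1 column was made of them is not given in the sources used here. There is therefore no replicate error and no test between genotypes, and every difference below is a difference between 2 columns. Each region's ratio is log2((knockout + 1)/(floxed + 1)), and "higher" or "lower" on its own means 2-fold or more, a log2 ratio of at least 1 in size. Because weak regions scatter widely, most of the description concerns the 1433 regions whose mean over both columns was 25 or more, called strong regions here. In place of a replicate error, a region's ratio is set beside the central 95% of ratios among regions of like signal, taken in 10 groups of equal size.

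Fermt2 itself had no region in the table, and the deletion could not be checked at the targeted gene. Fermt3 had no region either. The promoter of Fermt1, which encodes Kindlin-1, had 4 in floxed and 28 in knockout cells, a log2 ratio of 2.54. This lay above the central range of its signal group, from -1.33 to 1.64, although its mean signal of 16 is under the bound for strong regions. Fibroblast identity could not be checked from the table: none of 12 fibroblast markers had a region, nor had any marker of kidney epithelium (12), endothelium (6) or smooth muscle and pericytes (7). Of 7 leukocyte markers, 1 had a region, outside its promoter, which was higher in the knockout with a log2 ratio of 1.35.

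The promoters at the ends of the range are shown first, as reference sequence from RefSeq on GRCm38.p6, the assembly known as mm10. Each sequence runs 5′ to 3′ along the gene from 250 bases before to 50 bases after the start. Of the promoter regions with a gene symbol, 1577 of 2409 overlapped an entry for that gene. Capitals mark matches to a short motif on either strand: TGANTCA for AP-1, CCAAT for NF-Y, GGAATG for TEAD, CACGTG for the E-box and GCGCANGCG for NRF1. The 4 strong promoter regions with the highest ratios among those with an entry were at Pqlc3 (18 in floxed, 39 in knockout cells), Kcnj2 (18 and 37), Nxt1 (18 and 36) and Oma1 (20 and 37).
Pqlc3 (chr12:17000069-17000368, minus strand): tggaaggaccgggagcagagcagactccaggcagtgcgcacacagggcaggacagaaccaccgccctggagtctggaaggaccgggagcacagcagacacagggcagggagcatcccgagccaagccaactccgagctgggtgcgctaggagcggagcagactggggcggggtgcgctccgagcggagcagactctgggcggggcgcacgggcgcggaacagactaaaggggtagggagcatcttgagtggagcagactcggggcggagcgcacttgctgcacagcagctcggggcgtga
Kcnj2 (chr11:111065914-111066213, plus strand): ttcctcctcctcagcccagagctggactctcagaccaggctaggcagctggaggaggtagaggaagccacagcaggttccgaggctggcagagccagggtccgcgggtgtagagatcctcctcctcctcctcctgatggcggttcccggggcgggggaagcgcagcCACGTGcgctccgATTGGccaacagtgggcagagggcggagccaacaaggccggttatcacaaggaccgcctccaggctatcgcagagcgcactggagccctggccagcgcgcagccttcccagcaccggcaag
Nxt1 (chr2:148672365-148672664, plus strand): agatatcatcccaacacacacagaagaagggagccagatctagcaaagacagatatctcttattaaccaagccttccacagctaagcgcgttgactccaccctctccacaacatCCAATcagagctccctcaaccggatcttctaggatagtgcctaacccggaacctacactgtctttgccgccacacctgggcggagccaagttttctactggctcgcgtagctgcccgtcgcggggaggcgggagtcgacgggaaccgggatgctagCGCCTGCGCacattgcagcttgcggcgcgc
Oma1 (chr4:103313596-103313895, plus strand): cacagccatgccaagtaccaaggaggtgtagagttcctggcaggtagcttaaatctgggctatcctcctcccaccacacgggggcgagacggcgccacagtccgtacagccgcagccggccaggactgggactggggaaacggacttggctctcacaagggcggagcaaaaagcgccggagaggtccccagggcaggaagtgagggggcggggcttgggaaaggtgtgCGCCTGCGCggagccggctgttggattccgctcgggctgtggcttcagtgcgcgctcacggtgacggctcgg

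The 4 strong promoter regions with the lowest ratios among those with an entry were at Smim7 (45 in floxed, 8 in knockout cells), Nt5dc3 (46 and 9), Scaf11 (45 and 9) and Sacm1l (53 and 11).
Smim7 (chr8:72570999-72571298, minus strand): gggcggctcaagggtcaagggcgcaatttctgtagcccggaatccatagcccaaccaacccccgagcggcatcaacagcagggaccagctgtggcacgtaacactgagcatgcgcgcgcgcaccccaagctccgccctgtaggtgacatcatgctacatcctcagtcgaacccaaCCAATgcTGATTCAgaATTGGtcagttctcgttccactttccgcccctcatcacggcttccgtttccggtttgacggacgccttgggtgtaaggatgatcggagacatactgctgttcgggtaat
Nt5dc3 (chr10:86778755-86779054, plus strand): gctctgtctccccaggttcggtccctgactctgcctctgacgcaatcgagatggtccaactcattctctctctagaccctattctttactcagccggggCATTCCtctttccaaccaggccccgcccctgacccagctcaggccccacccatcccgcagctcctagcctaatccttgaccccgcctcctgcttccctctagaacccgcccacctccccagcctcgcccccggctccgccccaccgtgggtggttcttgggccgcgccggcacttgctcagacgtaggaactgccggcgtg
Scaf11 (chr15:96460794-96461093, minus strand): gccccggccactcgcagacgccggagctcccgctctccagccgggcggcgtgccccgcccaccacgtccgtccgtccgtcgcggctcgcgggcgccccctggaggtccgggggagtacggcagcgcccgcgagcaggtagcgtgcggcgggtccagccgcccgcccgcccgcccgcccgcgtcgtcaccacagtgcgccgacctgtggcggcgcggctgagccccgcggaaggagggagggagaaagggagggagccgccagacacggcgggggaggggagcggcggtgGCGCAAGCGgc
Sacm1l (chr9:123529503-123529802, plus strand): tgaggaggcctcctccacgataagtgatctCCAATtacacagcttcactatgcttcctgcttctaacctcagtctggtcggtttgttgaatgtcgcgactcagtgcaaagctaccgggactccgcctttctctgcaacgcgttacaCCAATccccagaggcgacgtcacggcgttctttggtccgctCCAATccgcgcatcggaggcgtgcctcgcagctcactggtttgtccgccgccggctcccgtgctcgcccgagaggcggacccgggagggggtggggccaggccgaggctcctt

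The direction of the difference followed the strength of the region. Over all 5716 regions, 925 were higher in the knockout (16.2%) and 521 lower (9.11%), with a median log2 ratio of 0.00 and a central 95% from -1.55 to 2.58. Among the 1433 strong regions the balance was the other way, with 40 higher (2.79%) and 213 lower (14.9%). Their median ratio was -0.35, and 71.1% of them lay below 0. From the weakest to the strongest of the 10 signal groups, the median ratio passed from 1.0 to -0.43. The weakest group held 318 higher and 18 lower regions, and the strongest 7 higher and 94 lower. Among weak regions floxed values of 0 were frequent: 87 regions were listed at 0 in floxed and 3 in knockout cells, none of them strong. The summed signal over the regions was 134590 in floxed and 114138 in knockout cells. With both sums set equal, the median of all ratios moved to 0.22, and the split became 1183 higher and 296 lower over all regions and 59 higher and 118 lower among strong ones. A loess curve through ratio against signal, which removes the slope by construction, left 457 higher and 505 lower regions, and 65 and 91 among strong ones. Quantile scaling gave 573 and 597, and 64 and 110 among strong regions. Over all regions the larger class thus changed with the scaling, while among strong regions lower ones outnumbered higher ones under each of these 3. Many of the named regions below are set beside regions of like signal.

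**Figure D1:**
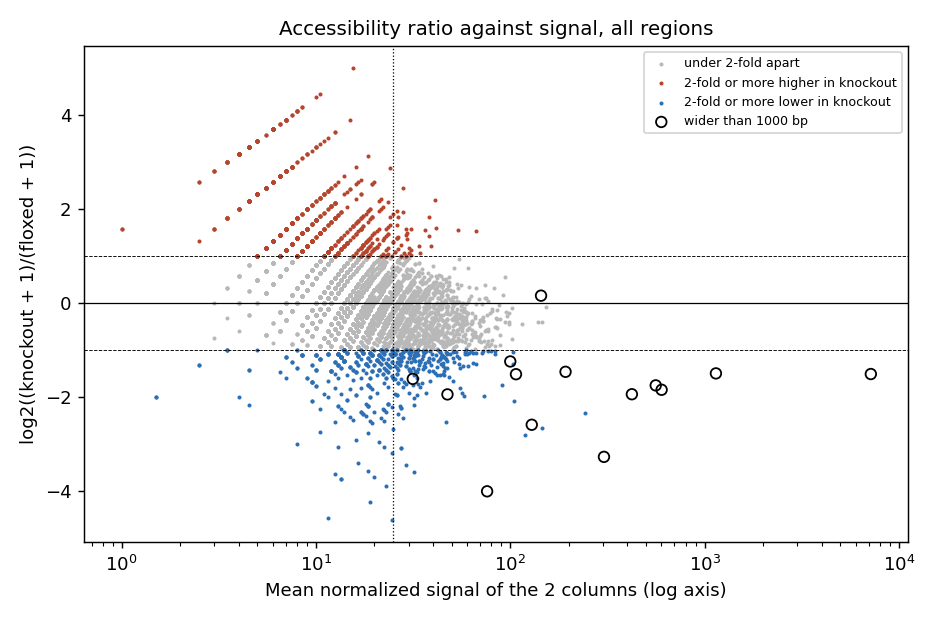
Each point is a region, with the mean normalized signal of both columns on a log axis and its log2 ratio of knockout over floxed. Dashed lines mark 2-fold and the dotted line a mean of 25. Points to the right of the dotted line lie mostly below 0, and circles mark the 14 regions wider than 1000 bp.

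**Figure D2:**
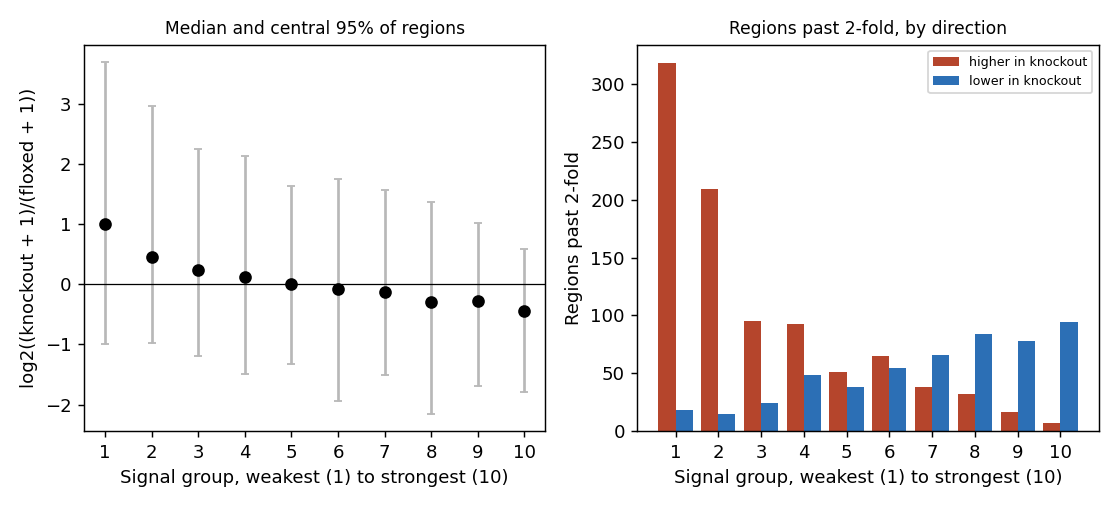
Left, the median log2 ratio (point) and the central 95% of regions (bar) in 10 groups of increasing mean signal. Right, the number of regions 2-fold or more higher and lower in the knockout in each group, from 318 and 18 in the weakest to 7 and 94 in the strongest.

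Promoters on the 2 sides of the bound had like values. Just inside it were the promoters of Rpl7 (20 in floxed, 30 in knockout cells) and Arfgap2 (22 and 28) and an unnamed promoter region of chromosome 1 (29 and 21). Just outside were Mcm3 (27 and 22), Tgfbrap1 (31 and 18) and Tiprl (23 and 26).

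Strong regions that were more accessible without Kindlin-2 were few. Of the 40, 11 had a gene symbol, beside 796 of all 1433 strong regions. The highest ratio with a symbol was at Trabd2b, which encodes a membrane protease that inactivates Wnt proteins, where the signal was 11 in floxed and 45 in knockout cells, a log2 ratio of 1.94. That region lies inside the gene, 2990 bp from its start. A region 3623 bp from the start of Ctsz, the gene of a lysosomal cathepsin, went from 20 to 63 (1.61). At the promoter of Lancl2 the signal was 14 in floxed and 44 in knockout cells (1.58), and at Gm45871 it was 20 and 56 (1.44). Each of these 4 lay above the central range for its signal, which reached 1.03 for Trabd2b and Lancl2 and 0.58 for the stronger Ctsz and Gm45871 regions. The range comes from these same ratios, and its top there lies near or under 2-fold. Regions picked as the highest therefore fall above it largely by selection. Of the strong regions, 27 of 40 higher and 36 of 213 lower ones lay outside the range of their group.

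The promoter of Eloc, which encodes elongin C, a subunit of many cullin ubiquitin ligases, had 20 in floxed and 48 in knockout cells (1.22). Ttc14 had 14 and 38 (1.38), at the edge of the range for its group. A region outside the gene body and 4218 bp from the start of Phc1 had 19 and 41 (1.07). Phc1 encodes a polyhomeotic subunit of Polycomb repressive complex 1. The inward rectifier potassium channel gene Kcnj2 had 18 and 37 (1.0), inside its group's range. Gm16432 had 20 and 42 (1.03). Pqlc3 (18 and 39, 1.07) and Scin (19 and 39, 1.0), the latter encoding a calcium-dependent actin-severing protein, both lie on chromosome 12. Relative to the median of that chromosome their ratios were 0.53 and 0.45, under 2-fold. Eloc and Gm16432, on chromosome 1, were also under 2-fold in that comparison, at 0.96 and 0.77.

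The next in order were under 2-fold apart. They included Nxt1 (0.96), a cofactor of mRNA export, and Oma1 (0.86), a protease of the mitochondrial inner membrane. The promoter of Hmox1, the gene of the stress-induced haem oxygenase, had 23 in floxed and 42 in knockout cells (0.84). Tle4, a Groucho family corepressor, combined a strong signal with a higher knockout value, 45 against 76 (0.74), above the range of its group, and so did Cldnd1 (29 and 51, 0.79) and Gm14137 (38 and 65, 0.76).

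Regions with no assigned gene reached higher ratios than named ones. The highest of the strong regions, chr1:77460756-77461246, had 8 in floxed and 48 in knockout cells (2.44). It was followed by chr12:98283456-98283835 with 14 and 68 (2.20) and chr13:15537333-15537903 with 10 and 42 (1.97). Next came chr4:33261425-33261819 with 10 and 40 (1.90) and chr14:101805056-101805725 with 16 and 60 (1.84). All 5 lay above the range of their groups, which again follows largely from picking the highest ratios. Of all 40 higher strong regions, 24 had no assigned gene (60%), beside 539 of all 1433 strong regions (37.6%).

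Lower accessibility without Kindlin-2 was seen at more of the strong regions. Of the 213 lower ones, 124 were promoters (58.2%), near the share among all strong regions (842 of 1433, 58.8%). The lowest ratio with a symbol was at Asmt, the gene of the last enzyme of melatonin synthesis in the pseudoautosomal part of the X chromosome, with 208 in floxed and 29 in knockout cells (-2.80). Smim7 followed with 45 and 8 (-2.35). Brox, whose product binds the ESCRT machinery, had 404 and 79 (-2.34) at a region 2094 bp from its start.

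The others in this set were mostly of moderate signal, between 41 and 93 in floxed cells. Nt5dc3 and Casp16-ps each had 46 and 9 (-2.23), and Scaf11, related to splicing factors, had 45 and 9 (-2.20). Sacm1l, a phosphoinositide phosphatase of the endoplasmic reticulum, had 53 and 11 (-2.17), and Etnk1, ethanolamine kinase, had 93 and 23 (-1.97). Azin1, the antizyme inhibitor of polyamine metabolism, had 53 and 13 (-1.95). Atxn7, a subunit of the SAGA coactivator, had 48 and 12 (-1.91), and Znf706 had 59 and 15 (-1.91). Sfr1, a partner of Swi5 in homologous recombination, had 86 and 24 (-1.80).

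Ifngr1, the ligand-binding chain of the interferon gamma receptor, had 44 and 12 (-1.79), below its group's range of -1.69 to 1.03. Nckap1, a subunit of the WAVE complex that starts branched actin networks, had 41 and 12 (-1.69), as did Xpot, the tRNA exporter, and both stayed inside the range of their weaker group, -2.15 to 1.38. Znfx1 (41 and 10, -1.93) was inside that range too, and so was Nwd1 (140 and 41, -1.75) in the strongest group. The remaining lower genes of the 20 were Miip (-1.74), Ccdc126 (-1.73) and Zranb2 (-1.72).

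**Figure D3:**
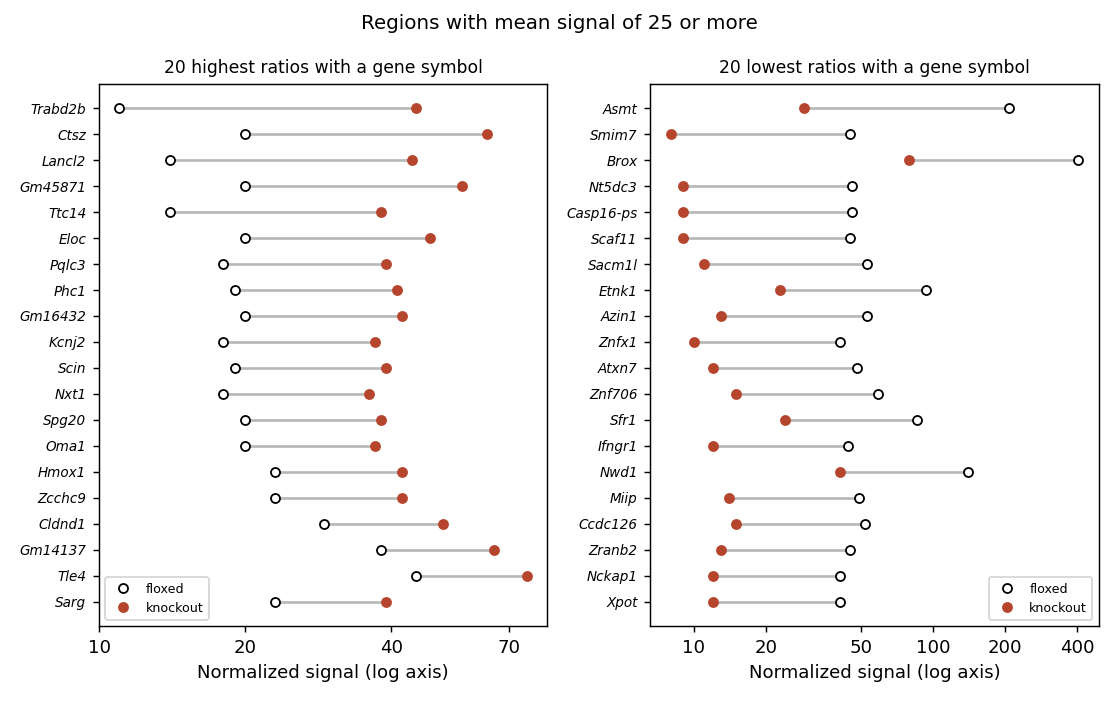
Normalized signal on a log axis in floxed (open) and knockout (filled) cells for the 20 highest and 20 lowest ratios among strong regions with a gene symbol. The highest run from Trabd2b (11 and 45) to Sarg (23 and 39), and the lowest from Asmt (208 and 29) to Xpot (41 and 12).

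The lowest ratios among strong regions were at regions with no assigned gene. The region chr4:156341470-156343735 had 144 in floxed and 8 in knockout cells (-4.01). The others were chr14:80657301-80657592 with 60 and 4 (-3.61), chr5:80683897-80684207 with 54 and 4 (-3.46), chr9:124256371-124257979 with 551 and 56 (-3.28) and chr3:122308470-122308627 with 50 and 5 (-3.09).

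The widest regions were nearly all lower. Of 14 regions wider than 1000 bp, a group singled out after its values were seen, 13 were lower, none was higher, and the median ratio was -1.68. The exception was the promoter of Sp4, a zinc finger factor that binds GC boxes, with 136 and 152 (0.16). These regions held most of the highest signals outside chromosomes MT and Y. The highest of them, at Gm21738 on chr14:19415723-19419688, had 10620 in floxed and 3726 in knockout cells (-1.51). It was followed by chr11:3100415-3104745 with 1690 and 598 (-1.50), chr16:3232071-3241004 with 941 and 261 (-1.85) and chr13:119596304-119602613 with 865 and 256 (-1.75). Another, chr4:3061899-3069107, had 671 and 174 (-1.94). Those on chromosomes 4, 11 and 16 lie close to the first assembled bases of these acrocentric chromosomes. Without the 14 wide regions the strong set held 40 higher and 200 lower regions. Most of these calls were lost under loess or quantile scaling. With equal sums 13 of the 14 stayed lower, and 12 with the chromosome median or the neighbours subtracted. Under the loess curve, which is drawn through few regions at such signals, the ratios at Gm21738 and chr11:3100415-3104745 turned to 0.58 and 0.04. Those at chr16:3232071-3241004, chr13:119596304-119602613 and chr4:3061899-3069107 were -0.50, -0.42 and -0.75, under 2-fold. Quantile scaling gave 0.00 at each of these 5 and placed Sp4 at 1.67. It sets regions of equal rank in both columns to 0 by construction, so those 0.00 values do not measure a difference. Of the 13 lower wide regions, 5 were still lower under loess and 5 under quantile scaling. The Rela pair had the other direction at these places, 7946 in wild-type and 10503 in Rela knockout cells at Gm21738 and 1144 and 1538 at the region of chromosome 11. Among the left-out chromosomes, both MT regions were lower, with a median of -1.09, and 8 of 9 Y regions were lower.

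Of the 10 regions with the highest signal outside chromosomes MT and Y, 8 were lower and 2 were under 2-fold apart, both of them promoters. Zbtb20, a zinc finger repressor, had 156 and 148 (-0.08), and Khsrp, an RNA-binding decay factor, had 167 and 126 (-0.40).

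Promoter regions and regions without a gene differed in their balance. Over all signals, 242 of 2671 promoter regions were higher (9.06%) and 282 lower (10.6%), with a median of -0.15, against 632 higher and 203 lower of 2763 regions with no assigned gene, with a median of 0.22. Promoters made up 26.2% of the higher, 54.1% of the lower and 50.3% of the other regions. Promoters also have more signal, and within each of the 10 signal groups their median was below that of unassigned regions, with 0.81 against 1.32 in the weakest group and -0.47 against -0.35 in the strongest. Among strong regions, 11 of 842 promoters were higher (1.31%) and 124 lower (14.7%), and 24 of 539 unassigned regions were higher and 80 lower. Close to the start the picture was the same: of 613 strong regions centred within 250 bp, 6 were higher and 88 lower. Of 49 strong regions between 2500 and 5000 bp away, 5 were higher and 7 lower.

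Genes of small nuclear and nucleolar RNAs were looked at after their values were seen. The table gives these genes no symbol, so they were named by position in RefSeq. Of 12 strong snRNA regions 3 were lower and none higher, and of 6 strong snoRNA regions 2 were lower, beside 14.9% of all strong regions. Over all signals, 5 of 32 snRNA regions were higher and 5 lower, and 1 of 14 snoRNA regions was higher and 3 lower. The U3 genes, whose RNA guides early cleavage of the ribosomal RNA precursor, form a cluster on chromosome 11. Rnu3b3 had 117 in floxed and 29 in knockout cells (-1.98), Rnu3b1 had 67 and 24 (-1.44) and Rnu3b4 had 44 and 23 (-0.91). The U2 gene Rnu2-10 had 67 and 31 (-1.09), while Gm22973 had 86 and 97 (0.17). These genes have near-identical copies, so reads could have been divided among them in ways that the files do not show.

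Chromosomes differed in level as a whole. Chromosome 12 had the highest median over all regions, 0.55 with 88 higher and 5 lower of 269, and was the only one with a median above 0 among strong regions (0.17, 6 higher and 2 lower of 47). Chromosome 16 had 58 higher and 4 lower of 252 regions, and among its 54 strong regions none was higher and 3 were lower. Chromosome 9 had the lowest medians, -0.42 over 91 regions and -0.91 over 25 strong ones, of which 12 were lower and none higher. Chromosome 15 had 21 lower and no higher among 75 strong regions, with a median of -0.61. Such shared levels enter each region's ratio. With the chromosome median subtracted, 844 regions were higher and 469 lower, and 34 and 183 among strong regions.

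**Figure D4:**
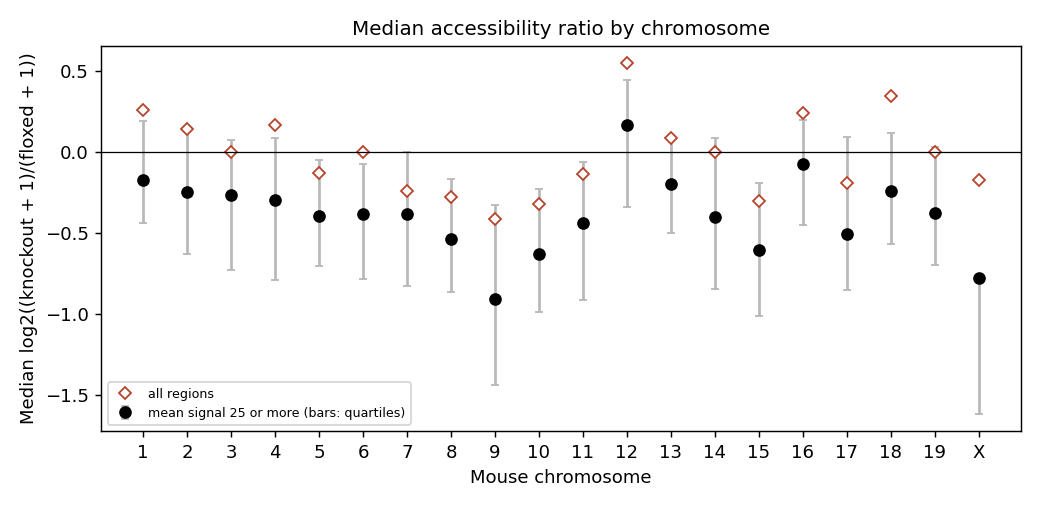
Median log2 ratio per chromosome over strong regions (filled, bars from the lower to the upper quartile) and over all regions (diamonds). Chromosome 12 stands highest in both and chromosome 9 lowest in both. The X chromosome has only 5 strong regions.

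Genes were then read in groups by function, through the regions centred within 2500 bp of their start. Of 2361 genes with such a promoter region, 196 were higher (8.3%) and 257 lower (10.9%), with a median ratio of -0.17. Among the 767 with a strong promoter, 8 were higher (1.04%) and 114 lower (14.9%), with a median of -0.43. The lists together matched 421 entries, of which 43 were higher and 44 lower. Weak promoters that are named here were picked after their values were seen. Of the list promoters named below, Fermt1, Tle4, Cdc25c, Kpna4 and Eloc lay above the central range of their signal groups. Sdc2, P4ha1, Pole, Carm1, Ifngr1, Uqcrq, Eif3a and Zfp2 lay below theirs, and the others inside.

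Integrin adhesion genes had 14 promoters, 4 higher and 1 lower, with a median of -0.18 that moved to 0.04 with equal sums. The 4 higher ones were weak: Fermt1, Itgb1bp1 (5 and 21, 1.87), a regulator that binds integrin beta 1 tails, Itgb8 (10 and 31, 1.54), the partner of integrin alpha v, and Actn1 (8 and 21, 1.29), which cross-links actin at adhesions. This count of 4 was the same under equal sums, quantile scaling and the loess curve, and was 2 with chromosome medians subtracted. Fermt1 lay above the range of its signal group, while Itgb1bp1, Itgb8 and Actn1 lay inside theirs, and all 3 are on chromosome 12, whose median was 0.55. Sdc2, a heparan sulphate proteoglycan of the cell surface, was the lower one at 29 and 3 (-2.91), below the range of its group. The strong adhesion promoters were under 2-fold apart. Zyx, encoding zyxin of focal adhesions and stress fibres, had 113 and 83 (-0.44). Lims1, which encodes PINCH in the complex that kindlins join, had 72 and 48 (-0.58). Fyn, a Src family kinase, had 35 and 22 (-0.65), vinculin (Vcl) had 35 and 27 (-0.36), and Rsu1, which binds PINCH, had 38 in both. Ilk itself had 10 in both.

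Beside the lower Nckap1, Capza2, encoding an actin filament capping subunit, was lower at 41 and 20 (-1.0). Limk1, the kinase that inactivates cofilin, had 80 and 46 (-0.79). Arpc1a, encoding a subunit of the Arp2/3 complex, was higher at 5 and 13 (1.22), and the formin gene Diaph3 was close at 14 and 28 (0.95). Only 4 genes of SRF and MRTF had a promoter region. Mkl2, encoding MRTF-B, was higher at 4 and 10, and Mkl1, encoding MRTF-A, had 2 regions with 18 and 14 (-0.34) and 16 and 19 (0.23).

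Hippo kinases and YAP targets had the lowest median of any list with 8 or more genes, -0.74 over 11 genes, with 3 lower, none higher and 9 below 0. The median stayed below 0 under each alternative tried, from -0.75 to -0.51. F3, the tissue factor gene, had 67 and 25 (-1.39), Nt5e, an ectonucleotidase, had 39 and 8 (-2.15), and Ptpn14, which binds YAP, had 33 and 16 (-1.0). Each of these 3 lay inside the range of its signal group. The kinase gene Stk3 (MST2) had 50 and 26 (-0.92), Wwtr1, encoding TAZ, had 61 and 33 (-0.87) and Nf2, encoding merlin, had 34 and 20 (-0.74). Ankrd1, a much used YAP target, had 34 and 30 (-0.18).

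In TGF-beta and BMP signalling 2 of 8 genes were higher and 1 lower, and the list's median of 0.26 turned to -0.09 with chromosome medians subtracted. Skil, the SnoN corepressor of SMAD proteins, was lower at 73 and 33 (-1.12), and the receptor gene Tgfbr1 had 38 and 21 (-0.83). Tgfbr2 was listed at 0 in floxed and had 8 in knockout cells, and Snai1, the gene of an inducer of mesenchymal state, had 1 and 13, so both higher calls rest on floxed values next to 0. Wnt genes were near even: none of 7 was higher or lower, with Gsk3b at 88 and 86 (-0.03), the receptor Fzd5 at 44 and 50 (0.18) and Tle1 at 53 and 47 (-0.17), beside Tle4 above. Of 56 extracellular matrix genes 4 had a promoter region, among them fibronectin (Fn1) at 26 and 12 (-1.05), P4ha1, a collagen prolyl hydroxylase, at 10 and 3 (-1.46), and thrombospondin 1 (Thbs1) at 10 and 25 (1.24).

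Cell cycle genes had 2 higher and 4 lower of 15, with a median of -0.23, and under the loess curve 1 was lower. The lower ones were Anapc4 of the anaphase-promoting complex (34 and 13, -1.32), E2f5 (78 and 31, -1.30), and the cyclin genes Ccne2 (48 and 20, -1.22) and Ccna2 (64 and 28, -1.16). E2f1 was higher at 7 and 16 (1.09), and Cdc25c had 1 and 15. Mad2l1, of the spindle checkpoint, had 59 and 63 (0.09). Of 27 replication and repair genes, 5 were lower and 1 higher, with a median of -0.28. They were Pole, the catalytic subunit of DNA polymerase epsilon (34 and 6, -2.32), the damage kinase gene Atm (37 and 14, -1.34), the ligase gene Lig4 (20 and 8, -1.22), Ogg1 of oxidised guanine repair (82 and 38, -1.09) and Ddb1 (30 and 14, -1.05). Gins3 was the higher one at 3 and 12 (1.70). With chromosome medians subtracted, 3 genes of this list were lower. Atm lies on chromosome 9, whose median was -0.42, as do Birc2 and Carm1 below. Xrcc4, the partner of Lig4, had 82 and 58 (-0.49).

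Nuclear envelope and pore genes had 3 higher and 3 lower of 15, and their 4 strong promoters all lay below 0, with a median of -1.01. Of all strong promoter genes, 77.2% lay below 0. Lbr, encoding the lamin B receptor, had 45 and 16 (-1.44), Ankle2, of nuclear envelope reassembly, had 44 and 21 (-1.03), the exportin gene Xpo1 had 68 and 34 (-0.98) and the importin gene Ipo5 had 87 and 55 (-0.65). The higher ones were weak, Lemd3 and Nup205 each with 3 and 10 (1.46), and Kpna4 listed at 0 in floxed and 14 in knockout cells. Chromatin modifiers were near even, 1 higher and 3 lower of 26 with a median of 0.06. With chromosome medians subtracted, none was higher and 1 was lower. Smarca2, an ATPase of SWI/SNF complexes, had 42 and 55 (0.38), Smarca5 had 37 in both, Kdm4b had 64 and 35 (-0.85) and the arginine methyltransferase gene Carm1 was lower at 22 and 8 (-1.35).

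NF-kB genes had none higher and 2 lower of 18: Map3k14, encoding the kinase NIK, at 35 and 12 (-1.47) and Birc2, encoding cIAP1, at 42 and 17 (-1.26). With chromosome medians subtracted, 1 gene was lower. The adaptor gene Bcl10 had 63 and 36 (-0.79), Irak4 had 67 and 38 (-0.80) and Nfkb2 had 24 and 26 (0.11). Among AP-1 and immediate early genes 1 of 9 was higher, Atf6, a factor of the endoplasmic reticulum stress response, at 3 and 9 (1.32). The promoter of Jun had 53 and 36 (-0.55) in its main region and 10 and 16 (0.63) in another, and the phosphatase gene Dusp6 had 31 and 21 (-0.54). Interferon genes had 2 higher and 2 lower of 8. The receptor chain Ifngr1 and its kinase Jak1 (18 and 8, -1.08) were lower, and Ifnar1 (4 and 9, 1.0) and Rsad2 (1 and 13) were higher. Apoptosis and p53 genes had 1 lower, Sesn1 (34 and 16, -1.04), and none higher of 12, with Ccng1, a p53 target, at 59 and 35 (-0.74).

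The lists of general cell functions held mostly weak promoters. tRNA synthetases had 4 higher and none lower of 11 and a median of 0.58, and under the loess curve none was past 2-fold. Their higher members were Nars (1 and 11), Farsb (4 and 12, 1.38), Wars (3 and 9, 1.32) and Dars (5 and 11, 1.0), and the 3 strong ones lay just below 0. Spliceosome genes had 2 higher and none lower of 12 (median 0.35, and 0.05 under loess), and oxidative phosphorylation genes 3 higher and 1 lower of 17 (median 0.23). The latter were Atp5a1 (4 and 15, 1.68), Ndufaf4 (10 and 28, 1.40) and Ndufb6 (4 and 10) against Uqcrq of complex III (16 and 4, -1.77). Cytosolic ribosomal protein genes had 1 higher of 11, mitochondrial ones 1 lower of 13, translation initiation factors 1 lower of 12 (Eif3a, 14 and 5, -1.32), the proteasome 1 lower of 5 and polymerase and Mediator subunits none of 9. Ubiquitin ligase genes had 3 higher and 2 lower of 19, with Fbxo4 (35 and 16, -1.08) and Fbxw7 (38 and 18, -1.04), both F-box subunits, lower beside the higher Eloc. Autophagy genes had 1 higher of 14, and the 2 strong ones were Atg3 (31 and 20, -0.61) and Gabarapl2 (56 and 40, -0.48). Clock genes had 1 higher of 6, Bhlhe41, listed at 0 in floxed and 12 in knockout cells, and Nr1d2 had 54 and 31 (-0.78).

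The balance in the larger families changed with the scaling. Zfp genes had 6 higher and 6 lower of 62 with a median of 0.00, which became 9 and 2 with equal sums, 2 and 7 with quantile scaling and 2 and 6 under loess. They ranged from Zfp2 (34 and 5, -2.54) to Zfp112 (1 and 11). The strongest, Zfp960, had 106 and 91 (-0.22). Solute carriers had 3 higher and 2 lower of 33, and 6 and none with equal sums. The amino acid transporter gene Slc1a4 had 98 and 51 (-0.93) and the mitochondrial carrier gene Slc25a42 had 87 and 41 (-1.07). Of 8 histone genes 1, Hist1h2bc, was lower (27 and 11, -1.22).

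**Figure D5:**
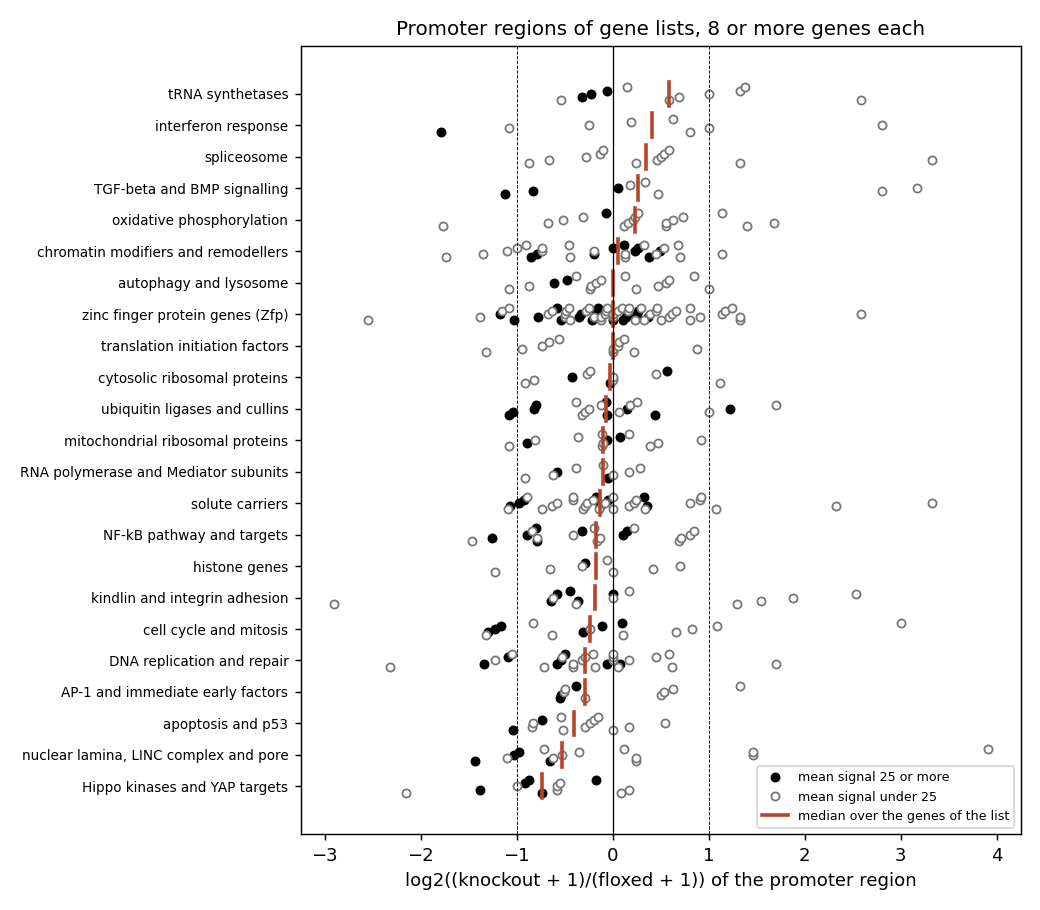
Log2 ratio of each promoter region in the lists shown, each with 8 or more genes, filled for a mean signal of 25 or more, with the median over genes as a bar. Filled points lie mostly below 0 in most lists, and Hippo kinases and YAP targets have the lowest median, -0.74.

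Promoter sequence, which had no part in choosing the regions, was compared next. The 300-base windows need not lie wholly within the measured region: that of Smim7 overlapped it by 18 bases and that of Scaf11 by 41, so a marked match can lie outside it. Among strong promoters with a RefSeq entry, the AP-1 motif TGANTCA occurred in 11 of 78 lower ones (14.1%), 31 of 469 that were under 2-fold apart (6.61%) and none of 2 higher ones. It occurred in 7.81% of all 32851 RefSeq promoters of this length. Without the signal bound the gap was narrower. There the motif was in 15 of 165 lower promoters (9.09%), 66 of 1293 under 2-fold apart (5.10%) and 4 of 116 higher ones (3.45%). The motif reads the same on both strands and shares no match with the cyclic AMP element TGACGTCA, which was in 2.56% of the lower and 3.62% of the other strong promoters. When a match had to lie inside the measured region, 9 of the 78 lower promoters had one (11.5%) and 27 of the 469 others (5.76%). With the loess curve, over whole windows, the AP-1 motif was in 6 of 29 lower promoters (20.7%), with equal sums in 8 of 36 (22.2%) and with chromosome medians subtracted in 10 of 64 (15.6%). Among higher promoters it was in 1 of 9 (11.1%) with loess and also with quantile scaling, and in none of 6 with equal sums. Among those under 2-fold apart the shares were 6.85% with loess, 6.73% with quantile scaling and 6.71% with equal sums. Read the other way, the 42 strong promoters with the motif had a median ratio of -0.43, and the 507 without it -0.38. The 11 lower promoters were those of Smim7, Xpot, Rtn4 (68 and 23, -1.52), Lbr, F3, Exoc5 (64 and 26, -1.27), Upp1 (37 and 15, -1.25), Ufl1 (53 and 22, -1.23), Agpat4 (71 and 31, -1.17), Fbxo4 and Msmo1 (64 and 30, -1.07). They were chosen for this list after their values were seen. F3 had 2 matches and each of the others 1, and the matches of Smim7 and Upp1 lay outside the measured region. The scan left the middle base N open, and shares with only C or G there were not computed. That base was T at Smim7 and Lbr, C at Xpot and G at Rtn4. The promoter of Met, the hepatocyte growth factor receptor gene, also had 1 match and was just under 2-fold, at 48 and 24 (-0.97).

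Besides Smim7, the 3 lowest of these promoters are shown here for the place of the AP-1 match beside other motifs.
Xpot (chr10:121626283-121626582, minus strand): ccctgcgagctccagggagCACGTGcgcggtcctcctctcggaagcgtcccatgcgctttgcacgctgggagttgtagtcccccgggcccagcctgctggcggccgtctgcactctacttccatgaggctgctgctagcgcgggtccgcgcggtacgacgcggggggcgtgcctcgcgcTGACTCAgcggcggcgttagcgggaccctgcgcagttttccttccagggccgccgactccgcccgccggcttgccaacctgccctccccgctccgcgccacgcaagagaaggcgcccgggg
Rtn4 (chr11:29692648-29692947, plus strand): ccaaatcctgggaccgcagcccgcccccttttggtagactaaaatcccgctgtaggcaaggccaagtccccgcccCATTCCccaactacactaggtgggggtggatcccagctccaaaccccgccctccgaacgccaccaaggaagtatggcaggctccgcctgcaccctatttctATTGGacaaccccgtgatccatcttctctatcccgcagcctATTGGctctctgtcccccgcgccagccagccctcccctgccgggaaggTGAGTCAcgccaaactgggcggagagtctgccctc
Lbr (chr1:181842352-181842651, minus strand): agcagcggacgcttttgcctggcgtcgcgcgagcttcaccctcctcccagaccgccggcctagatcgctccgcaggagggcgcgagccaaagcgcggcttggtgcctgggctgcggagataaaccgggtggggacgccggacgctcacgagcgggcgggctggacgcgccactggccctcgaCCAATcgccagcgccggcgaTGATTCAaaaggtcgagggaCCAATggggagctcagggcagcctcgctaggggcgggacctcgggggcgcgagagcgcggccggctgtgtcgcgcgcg

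The remaining motifs differed less between lower and other strong promoters. AP-1 had the widest gap in percentage points of all motifs scanned, and its share rests on 11 lower promoters. The CCAAT box was in 57.7% and 57.6%, the GC box GGGCGG in 80.8% and 81.0%, the ETS motif CCGGAAG in 20.5% and 22.2%, the TEAD motif GGAATG in 8.97% and 12.8%, and the NRF1 motif in 17.9% and 14.7%. Median GC content was 65.5% and 64.3%. A match describes letters in this window and does not show that a factor binds there.

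Finally, the regions were set against those of the Rela pair, which shares no sample with this comparison and differs in tissue of origin. Of all 5716 regions, 81.8% overlapped a region of that table by at least 1 base. The share was 89.4% for lower regions and 86.2% for those under 2-fold apart, and 56.9% for higher ones. Higher regions were also weaker, with a median mean signal of 8.5 against 22 for lower ones. Of them 68.3% had no assigned gene, against 39.0% of lower ones. Over all classes, 72.9% of unassigned regions and 91.8% of promoters overlapped. Among strong regions the overlapping share was 72.5% of the 40 higher, 95.3% of the 213 lower and 95.7% of the others. All 124 lower strong promoters were also regions in 3T3 cells, as were 9 of 11 higher ones and 830 of all 842 strong promoters (98.6%). Trabd2b, Ctsz, Phc1 and Scin had no overlapping region there. Across the 1361 strong regions with an overlap, the ratio of the Kindlin-2 pair and that of the Rela pair had a Pearson r of 0.009 and a Spearman coefficient of 0.013, given as a description across regions, which are not independent. Of the 20 lowest strong regions with a symbol, 8 had a ratio above 0 in the Rela pair and 12 below. Among the 8 above 0, Brox was 98 in wild-type and 240 in Rela knockout cells, and Smim7 was 234 and 335. Of the 20 highest, 15 had an overlapping region, with 8 above 0 and 7 below.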

How the data were processed

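ATAC-seq signal was compared between 2 lines of kidney fibroblasts, floxed for Kindlin-2 or without it. Per the submitters' processing notes, which give no role or order, the authors used STAR 2.4.2a on mm10 with Trimmomatic 0.33, Picard 1.136 and FastQC, and MACS2, bedtools, deepTools and DESeq2. The values the authors deposited are a score: background-corrected signal, normalized within the table and rounded, per the labels' name for the table. They are not counts, so depth and counting error are unknown. Treatment of Tn5 offsets, duplicates and mitochondrial reads, the region calls and the pooling of replicates are steps not given in the sources used here. Whether starts count from 0 or 1 is not given either, and coordinates stand as in the table.

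Ratios used a pseudocount of 1. Alternatives were pseudocounts of 0.5 and 5, equal sums, median centring, quantile scaling, loess (span 0.3), subtraction of the chromosome median or of 50 neighbours on each side, 1.5-fold and 3-fold thresholds, and other signal bounds. Named were kindlin genes, the 20 highest and 20 lowest strong regions with a symbol, 5 and 5 without, the 10 of highest signal, up to 4 strong promoters per list (its 2 strongest where none passed 2-fold) and 3 promoters on each side of the bound. Others are said to be chosen after their values were seen. The regions, the 36 lists and the alternatives were chosen with earlier results of these data known. Python 3.11.15 with pandas 2.3.3 and statsmodels 0.14.6 was used, and the ratio and call steps were tested on simulated data. Unnamed genes were named by position in a RefSeq table of GRCm38.p6 (152 of 406). The counts of 1 list are not reported here.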

Additional observations from a re-analysis of the deposited data

How the results depend on the processing

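With 1 value per genotype, no replicate could be left out. No paired analysis was possible because each genotype has 1 column and the labels give no replicate numbers. Over all regions, 925 higher and 521 lower became 543 and 325 with a pseudocount of 5, 1524 and 1236 at 1.5-fold, and 446 and 142 at 3-fold. Equal sums left 296 lower, quantile scaling 573 higher and loess 457 higher. A mean of at least 10 left 387 higher, and a mean of at least 50 left 2 higher and 49 lower. Among strong regions, 40 higher and 213 lower became 95 and 503 at 1.5-fold, 11 and 52 at 3-fold, 2 and 49 with a mean of at least 50, and 155 and 361 when the higher column had to reach 25. Equal sums left 118 lower, quantile scaling gave 64 and 110, and loess 65 and 91. Higher regions made up 64.0% of those past 2-fold, against 80.0% with equal sums, 49.0% with quantile scaling and 47.5% with loess, and among strong regions 15.8%, 33.3%, 36.8% and 41.7%. Fewer regions are tested under the stricter bounds, and for the scalings the cause was not tested. The promoter share of higher regions was 21.7% with a pseudocount of 5, the medians of chromosomes 12 and 9 were 0.17 and -0.91 over strong regions, and list genes were 1 higher and 19 lower there. Of 151 named regions, 72 were past 2-fold and 41 stayed so under each of 5 alternatives (pseudocount 5, quantile scaling, loess, chromosome and neighbour subtraction). Loess turned 2, Gm21738 (0.58) and chr11:3100415-3104745 (0.040). Leaving out regions wider than 1000 bp, an alternative chosen after seeing the data, gave 925 higher and 508 lower. Depth is unknown, so no limit of detection can be given for a signal of 0.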
